A study of Mus musculus with 32 samples.

Results

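The genes described here are 36 genes of the lysosome: the cathepsins and other acid hydrolases that degrade what a macrophage takes up, the membrane proteins of the organelle, and the transcription factors and ion channel that govern it. They were taken by symbol from a fixed list, all 36 were found among the 25067 genes of the table, and all 36 were among the 11279 genes tested. Each was measured by RNA-seq in bone marrow-derived macrophages (BMDMs) of wild-type mice (WT) and of Nur77-KO mice (KO), at 0, 1, 5 and 18 h of 100 ng/ml lipopolysaccharide (LPS), the bacterial cell wall component that activates Toll-like receptor 4. There were 4 libraries per group, 32 in all. The mice were C57Bl6/J males. The KO is a whole-body deletion, made by crossing a loxP-flanked Nr4a1 allele (the gene of Nur77) to a CMV-Cre line from which Cre was later bred out, and the sample labels call it cre. The WT were littermates. The cells were grown from marrow in L929-conditioned medium and seeded in 4 replicates, and the number of animals behind them is not given in the sources used here, so p-values measure the spread between these libraries, which may be technical.

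Lysosomes are acidic organelles in which hydrolases cut proteins, glycans, lipids and nucleic acids. Most of these enzymes reach the lysosome from the Golgi on mannose 6-phosphate receptors and work only at low pH, which the vacuolar H+-ATPase (V-ATPase) maintains. Many of their genes share a short promoter element, the CLEAR element, which the transcription factors TFEB and TFE3 bind. In macrophages the same enzymes also trim antigens for MHC class II molecules and process Toll-like receptors and granule proteases.

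Tag totals per library were 8742362 to 15780926. All 8 macrophage markers had a mean above 1 CPM (tags per 1000000 of the library, scaled with the trimmed mean of M-values, TMM), with a summed level of 9638 to 17156 CPM, while none of 6 fibroblast and none of 5 erythroid markers did. So did 3 of 8 neutrophil, 2 of 7 dendritic cell and 1 of 5 each of B cell, T cell and mast cell markers. Summed, these 5 lists reached at most 37.6, 27.0, 4.73, 11.7 and 5.34 CPM in any library. Summed over 8 osteoclast genes, the level at 0 h was 412 to 554 CPM in WT and 956 to 1269 CPM in KO. Of these 8, 6 had a mean above 1 CPM, most of the sum was Mmp9, and Calcr and Oscar were at or under 1 CPM. Whether osteoclasts were present, and their part in the results below, was not tested. Nr4a1 itself was lower in KO before LPS (KO over WT -1.90 ± 0.19, adjusted p = 1.51e-08, log2) and at 1 h (-1.20 ± 0.15, adjusted p = 1.85e-06), at 358 to 483 CPM in WT and 146 to 244 CPM in KO at 1 h. At 5 h the value was -1.54 ± 0.55, adjusted p = 0.0419, and at 18 h -0.47 ± 0.69, adjusted p = 0.68, with both genotypes near 0. KO libraries thus still held tags of the gene, and which part of it was deleted was not analysed here. The library of KO replicate 1 at 5 h stood apart from its group in several members. Genotype calls at 5 h and counts of LPS calls in KO that rest on it are also given without it. Fewer cells of a type and less RNA per cell cannot be told apart in bulk RNA.

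Lysosomal transcripts made up a large part of the RNA of these cells. Tags on the 36 genes were 9.07% ± 0.699 (SD, n = 4) of a library total in WT and 8.64% ± 0.406 in KO before LPS, 5.56% ± 0.212 and 5.33% ± 0.774 at 5 h, and 7.89% ± 0.279 and 6.68% ± 0.453 at 18 h. At 5 h, KO replicate 1 was at 4.25% and the other KO libraries were at 5.29% to 5.94%. All libraries of both genotypes at 5 h were below all libraries at 0 h. Just 4 genes took 69.3% of the member tags in WT at 0 h: Ctsb, Psap, Ctsd and Gpnmb. The same 4 took 62.4% in KO at 18 h, where Gpnmb led.

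The level per length differed widely between genes. In WT at 0 h Ctsd, the major aspartic protease of lysosomes, was highest at 5813 ± 692 RPKM (CPM per kilobase of transcript; SD, n = 4), followed by Psap, the precursor of the saposins that present lipids to hydrolases, at 4676 ± 623, Ctsb at 3161 ± 335, Gpnmb at 3025 ± 223 and Ctss at 2893 ± 216 RPKM. Neighbours in this order often lay within each other's spread: Ctsb, Gpnmb and Ctss did. The lowest were Ctsf at 6.18 ± 0.659, Smpd1, the acid sphingomyelinase, at 9.52 ± 0.613, Ctsk at 10.9 ± 1.82 and Tfeb at 11.7 ± 1.26 RPKM. Of the annotated exon bases of Ctsd, 34.4% lie in a second gene of the same strand, and of those of Ctsl 26.9% lie in an antisense gene. For Ctsb and Hexa 12.8% and for Ctsa 10.5% lie in a gene of the other strand. Whether the counting used the strand is not given in the sources used here, so tags in these stretches cannot be assigned to 1 gene.

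**Figure D1:**
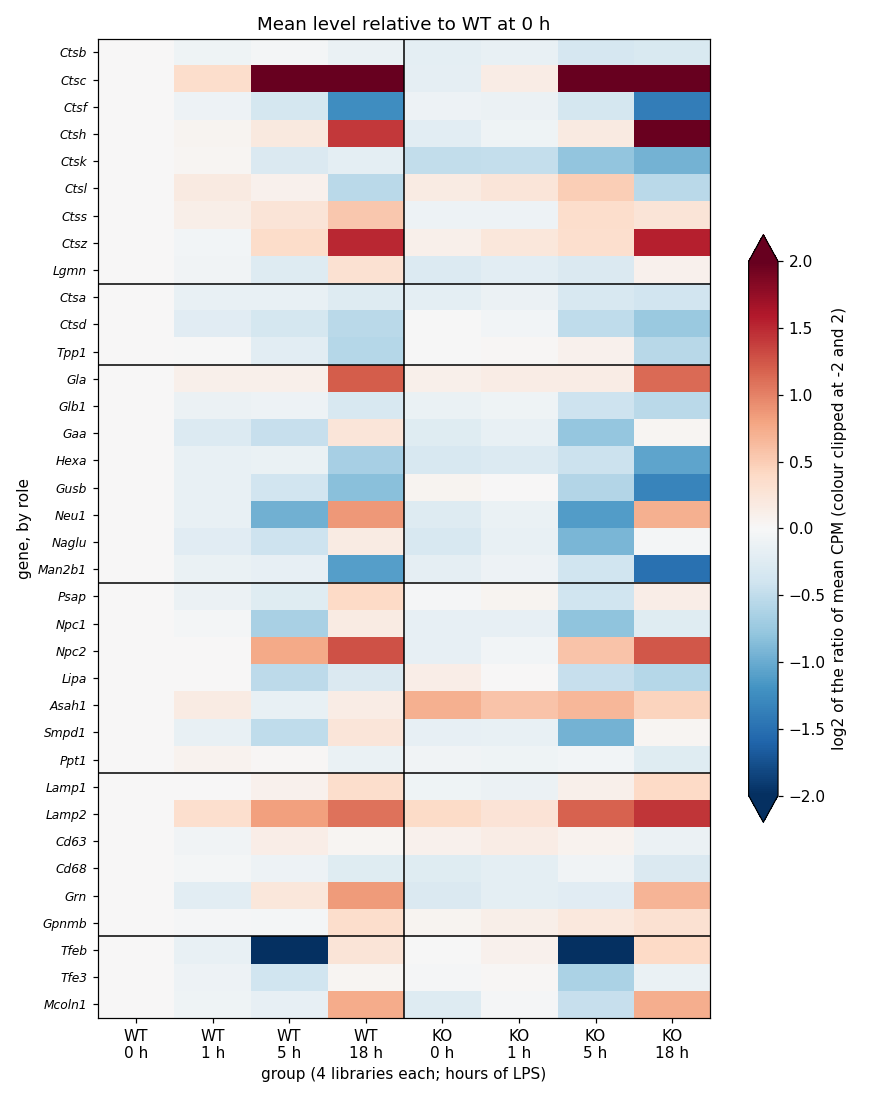
Mean level of each of the 36 genes (rows, grouped by role) in the 8 groups (columns, 4 libraries each), as log2 of the ratio of mean CPM to WT at 0 h, with the colour clipped at -2 and 2. Ctsc, Ctsz, Ctsh, Gla and Npc2 are red at 18 h in both genotypes, Ctsf, Man2b1, Gusb and Hexa are blue at 18 h, and Tfeb is dark blue at 5 h and near its starting level at 18 h.

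The first question was how LPS changed the genes in WT cells. At 1 h, 1 of 36 was called with edgeR's quasi-likelihood test (adjusted p under 0.05, against 20.3% of all genes tested, 10.2% higher and 10.2% lower). After 5 h it was 19 (5 higher and 14 lower, against 70.0% of all genes, 30.0% higher and 40.1% lower) and after 18 h 26 (15 higher and 11 lower, against 66.3%, 32.3% higher and 33.9% lower). The median log2 fold change of the 36 was -0.16 at 5 h and 0.16 at 18 h, where that of all genes tested was -0.14 and -0.01. In KO the counts were 1 (against 12.2% of all genes, 6.86% higher and 5.37% lower), 20 (8 higher and 12 lower, against 71.2%, 32.2% higher and 39.1% lower) and 26 (14 higher and 12 lower, against 69.2%, 33.7% higher and 35.5% lower). Without KO replicate 1 at 5 h, the KO count at 5 h was 17 (8 higher and 9 lower, with 7809 of the 11279 genes tested called). At 18 h, 13 of the higher and 9 of the lower genes were shared between the genotypes. The share of all genes called the same way in both genotypes was not worked out. This overlap is therefore not read as particular to the members. As shares of the 36, the counts were 2.78%, 52.8% and 72.2% in WT and 2.78%, 55.6% and 72.2% in KO, below those of all genes at 1 and 5 h and near them at 18 h. With a log2 fold change over 0.58 required as well, the WT counts were 0, 6 and 13 (against 10.4%, 51.6% and 45.5% of all genes) and the KO counts 0, 11 and 16 (7.50%, 51.8% and 50.0%). Over 1, they were 0, 2 and 8 (5.19%, 33.7% and 27.4%) and 0, 2 and 9 (4.53%, 32.6% and 31.8%).

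The direction of a small change by LPS depended on the scaling. Scaling by library totals in place of TMM moved the median of all genes at 5 h from -0.14 to -0.78 in WT and from -0.12 to -0.74 in KO, and at 18 h to -0.37 and -0.48. The members called then split into 1 higher and 33 lower at 5 h and 9 higher and 18 lower at 18 h in WT, and into 1 higher and 33 lower and 9 higher and 19 lower in KO. With DESeq2's size factors the split at 5 h in WT was 8 higher and 8 lower. At 5 h in WT, 9 genes kept their call under all 3 scalings: Ctsc was higher, and Lgmn, Gusb, Neu1, Npc1, Lipa, Smpd1, Tfeb and Tfe3 were lower. At 18 h, 19 did, with Ctsc, Ctsh, Ctsz, Lamp2, Gla, Neu1, Npc2, Grn and Mcoln1 higher and Ctsa, Ctsd, Ctsf, Ctsl, Cd68, Hexa, Gusb, Lipa, Tpp1 and Man2b1 lower. The other calls of these WT comparisons were lost or turned under another scaling. Leaving out WT replicate 4 at 0 h, WT replicate 1 at 5 h or WT replicate 4 at 5 h lowered the count at 5 h in WT from 19 to 12.

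The cysteine cathepsins and legumain, 9 genes in all, cut proteins with an active-site cysteine, and 5 of them were higher and 2 lower at 18 h in WT. Ctsc (dipeptidyl peptidase I, which activates the serine proteases of immune granules) had the largest change of the 36 at 18 h in both genotypes. It was at 129, 121, 143 and 131 CPM in the 4 WT libraries at 0 h, at 1056, 1011, 1080.3 and 1086 CPM at 5 h and at 1635, 1657, 1813 and 1623 CPM at 18 h. In KO, the same gene was at 114, 109, 117 and 121 CPM at 0 h and at 2309, 2100.4, 2065 and 2511 CPM at 18 h. No library at 5 or 18 h overlapped any at 0 h. The log2 fold change in WT was 0.35 ± 0.08, adjusted p = 0.00222, at 1 h, 3.01 ± 0.09 (SE) at 5 h and 3.68 ± 0.09, adjusted p = 5.79e-25, at 18 h.

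Ctsz and Ctsh, a carboxypeptidase and an aminopeptidase of the same family, rose later. Ctsz was at 625, 588, 702 and 731 CPM in WT at 0 h, at 809.5 to 889 CPM at 5 h and at 1909.5, 1934, 1747 and 1972 CPM at 18 h. By 18 h it had risen by 1.52 ± 0.07, adjusted p = 1.03e-17, on the log2 scale in WT and 1.44 ± 0.07 in KO, and at 5 h the value of 0.36 in WT turned to -0.27, adjusted p = 0.00396 with library totals. For Ctsh the libraries stood at 179, 146, 218 and 180.2 CPM at 0 h and at 477, 495, 465 and 494 CPM at 18 h in WT. In KO, Ctsh was at 154, 151, 151 and 172 CPM at 0 h and at 732, 713, 690.4 and 716 CPM at 18 h, so all 4 KO libraries at 18 h lay above all 4 WT libraries. The rise was 1.42 ± 0.09, adjusted p = 3.00e-14, in WT and 2.17 ± 0.10, adjusted p = 9.95e-19, in KO.

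Against these stood Ctsf and Ctsl. The low-level Ctsf was at 12.2, 10.4, 13.1 and 13.3 CPM in WT at 0 h and at 4.00, 5.67, 5.42 and 5.66 CPM at 18 h, with no overlap, and its log2 fold change was -1.23 ± 0.16, adjusted p = 5.76e-08. Ctsl, which with Ctss removes the invariant chain from MHC class II molecules, went from 1950.2 ± 265 to 1345 ± 69.2 CPM (-0.54 ± 0.09, adjusted p = 3.42e-06), while Ctss went from 3920.2 ± 292 to 5694 ± 533 CPM (0.54 ± 0.11, adjusted p = 7.44e-05; with library totals 0.17, adjusted p = 0.0696). Lgmn, the asparaginyl endopeptidase, was lower at 5 h (-0.27 ± 0.08, adjusted p = 0.00399) and higher at 18 h (0.31 ± 0.08, adjusted p = 0.00151; -0.06, adjusted p = 0.522 with library totals). Ctsb, the most abundant member by tags at 0 h, was at 14992 CPM at 0 h and 13602 CPM at 18 h, a difference that did not pass the test (-0.14 ± 0.11, adjusted p = 0.252). Ctsk lies 17.4 kb from Ctss on chromosome 3, in the same orientation and at 10.9 ± 1.82 RPKM against 2893 ± 216 RPKM at 0 h.

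**Figure D2:**
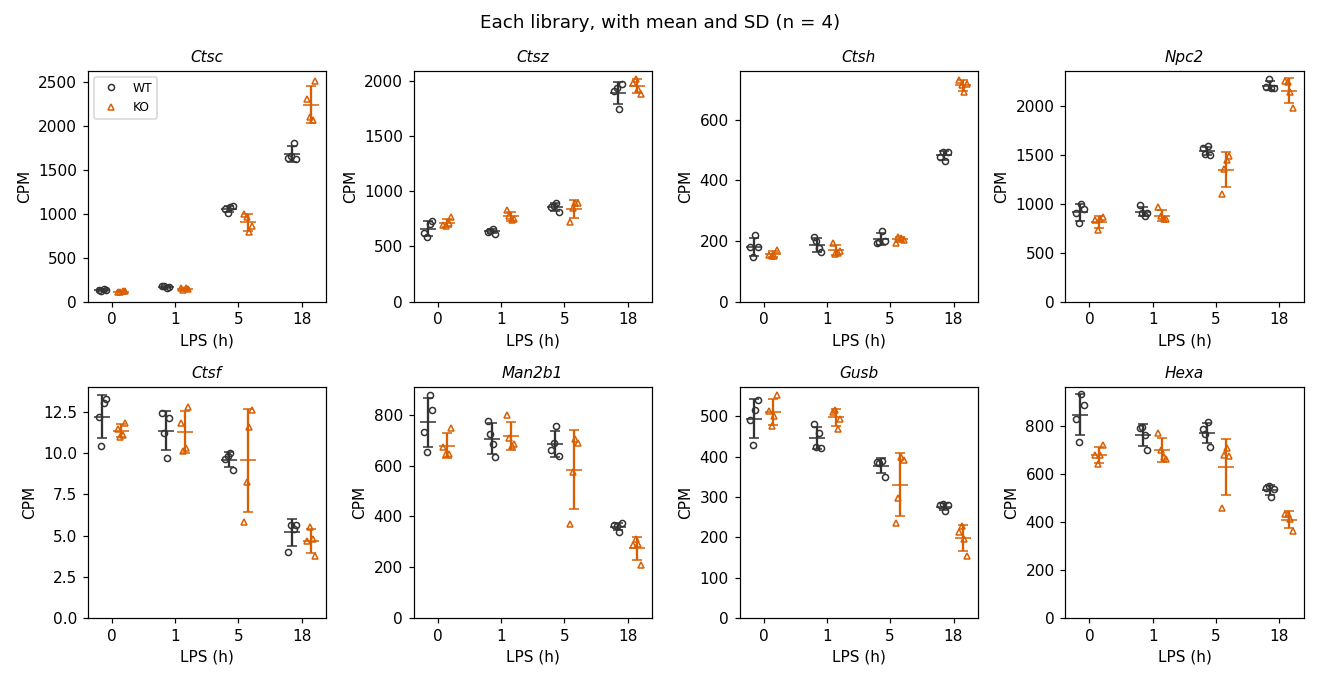
CPM of 8 genes in each library against hours of LPS (WT, circles; KO, triangles; bars, mean and SD of 4 libraries). Ctsc, Ctsz, Ctsh and Npc2 are highest at 18 h, and Ctsf, Man2b1, Gusb and Hexa are lowest at 18 h, in both genotypes.

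Ctsc holds an observation that its single gene value hides. The table lists 2 RefSeq transcripts of this gene, and all values above are of the long form, of 7 exons at chr7:88278085-88310888 (GRCm38, + strand; GENCODE exons, 2493 bases). The short form, at chr7:88278134-88291397, shares exon 2 and most of exon 1, and then ends on 2 exons of its own (85 and 2748 bases) within the second intron of the long form. No exon of another annotated gene overlaps these. Tags on these 2 exons cannot be told from tags on unspliced RNA of the long form, whose part was not tested. How tags on the shared exons were divided between the forms is not given in the sources used here.

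Before LPS, the short form stood at 39.7, 38.6, 40.3 and 39.2 tags per 1000000 of the library total in WT. At 1 h it was at 267, 269, 211 and 254, and at 5 h at 741, 726, 701 and 830.1. At 18 h it was lower again, at 201, 198, 202 and 198, and still above each library at 0 h. The long form, on the same scale, was at 162 ± 9.03, 186 ± 11.5, 839 ± 15.6 and 1609.8 ± 41.0 (SD, n = 4). So the tags assigned to the short form were highest at 5 h, and those assigned to the long form at 18 h. The ratio of short to long, which no scaling between libraries can change, was 0.246, 0.253, 0.231 and 0.246 in the 4 WT libraries at 0 h, 1.38, 1.37, 1.23 and 1.40 after 1 h, 0.887, 0.878, 0.842 and 0.963 after 5 h and 0.126, 0.125, 0.121 and 0.125 in the 4 libraries of 18 h. In KO, it was 0.223, 0.212, 0.185 and 0.227 at 0 h and 0.909, 0.933, 1.08 and 1.17 at 1 h, all 4 libraries at each time below all WT libraries, and 0.900 ± 0.115 at 5 h and 0.127 ± 0.00773 at 18 h, where the genotypes overlapped. Each of the 6 comparisons of LPS with 0 h, and KO against WT at 0 and 1 h, gave p = 0.0286 in a two-sided exact permutation test (the smallest that 4 against 4 can give; 0.0357 adjusted over 10 comparisons), and KO against WT gave p = 0.943 at 5 h and p = 0.514 at 18 h in the same exact test. This comparison was chosen after its values were seen, out of 15 members with more than 1 transcript. The adjustment over 10 comparisons does not cover that choice. The p of 0.0286 in the permutation test therefore only restates that the libraries did not overlap. Summing both transcripts removed the rise of Ctsc from 5 to 18 h in WT, from 0.68 to -0.08, adjusted p = 0.431.

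**Figure D3:**
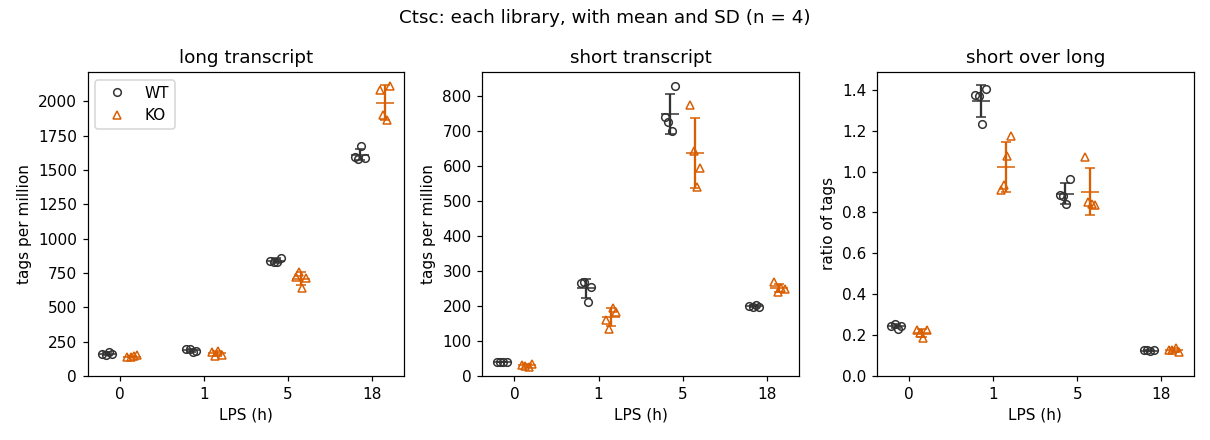
Tags per 1000000 of the library total on the long (left) and the short (middle) transcript of Ctsc, and their ratio (right), in each library against hours of LPS, with mean and SD of 4 libraries. The ratio is near 0.2 at 0 h, above 0.9 at 1 h in every library, and near 0.1 at 18 h.

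Of the other peptidases, Ctsd and Tpp1 (tripeptidyl peptidase 1) fell by 18 h in both genotypes. Ctsd went from 12363 ± 1472 to 8522 ± 377 CPM in WT (-0.54 ± 0.15, adjusted p = 0.0031), and Tpp1 from 362 ± 14.9 to 244 ± 3.04 CPM (-0.57 ± 0.09, adjusted p = 1.96e-06). Ctsa, the protective protein that holds the sialidase and the beta-galactosidase in one complex, was called lower in WT alone (-0.25 ± 0.10, adjusted p = 0.0219, and -0.21 ± 0.10, adjusted p = 0.0568 in KO). That difference between genotypes was 0.05 ± 0.13, adjusted p = 0.914, and did not pass the test.

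The 8 glycosidases, which take sugars from glycoproteins, glycolipids and glycosaminoglycans, did not move together, and at 18 h in WT 2 were higher and 4 lower. Man2b1 (lysosomal alpha-mannosidase) was at 732, 653, 876 and 818 CPM at 0 h and at 364, 362, 338 and 372 CPM at 18 h (-1.10 ± 0.13, adjusted p = 1.94e-08). Gusb (beta-glucuronidase) was at 489.8, 428, 515 and 541 CPM at 0 h, at 387, 383, 389 and 349 CPM at 5 h and at 279, 282, 264 and 279 CPM at 18 h (-0.84 ± 0.12, adjusted p = 2.14e-07). Hexa, the alpha subunit of beta-hexosaminidase, was at 830.3, 736, 935 and 889 CPM at 0 h and at 541, 550.0, 504 and 539 CPM at 18 h (-0.67 ± 0.10, adjusted p = 4.39e-07). In all 3 the libraries at 18 h lay below every library at 0 h.

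Gla (alpha-galactosidase A) and Neu1 (the lysosomal sialidase) were the 2 higher ones. Gla stayed near its start until 5 h, at 192 ± 5.69 CPM at 0 h and 206 ± 10.0 CPM at 5 h, and was at 445 ± 31.3 CPM at 18 h (1.21 ± 0.06, adjusted p = 3.17e-17). Neu1 first dropped, from 63.7 ± 2.80 CPM at 0 h to 32.8 ± 2.09 CPM at 5 h (-0.97 ± 0.12, adjusted p = 3.11e-08), and then stood at 116 ± 11.5 CPM at 18 h (0.87 ± 0.12, adjusted p = 1.19e-07). Glb1, the beta-galactosidase, fell least of the 4 lower ones, from 134 ± 15.1 to 107 ± 5.69 CPM (-0.33 ± 0.14, adjusted p = 0.0408). For Neu1, KO cells gave -0.87 ± 0.12 and 0.96 ± 0.12 for the same steps.

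Among the 7 genes of lipid breakdown and sterol transfer, Npc2, the soluble protein that carries cholesterol to NPC1, rose most. It was at 908, 803, 999.9 and 946 CPM in WT at 0 h and at 2199, 2279, 2184 and 2188 CPM at 18 h (1.27 ± 0.08, adjusted p = 6.50e-15). Its membrane partner Npc1 went the other way at 5 h, from 322 ± 21.9 to 206 ± 16.3 CPM (-0.65 ± 0.07, adjusted p = 1.07e-09), while Npc2 had 0.75 ± 0.08, adjusted p = 8.67e-10 (0.12, adjusted p = 0.23, with library totals). Lipa, the acid lipase that frees cholesterol from its esters, was lower at 5 h (-0.54 ± 0.07, adjusted p = 9.38e-08) and at 18 h (-0.29 ± 0.07, adjusted p = 6.16e-04). Psap was -0.25 at 5 h, short of the threshold, and 0.40 ± 0.15, adjusted p = 0.0167, at 18 h, but 0.04, adjusted p = 0.847 with library totals. Smpd1 was lower at 5 h (-0.51 ± 0.18, adjusted p = 0.0131). Ppt1, which removes fatty acids from proteins, passed the test in WT neither at 5 h (0.02) nor at 18 h (-0.13).

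In the group of membrane proteins and other glycoproteins, Lamp2 and Grn led. Lamp2, a main glycoprotein of the lysosomal membrane, was at 529, 700.4, 538 and 503 CPM in WT at 0 h and at 1059, 1167, 1664 and 938 CPM at 18 h (1.09 ± 0.19, adjusted p = 1.11e-05). It spread widely among replicates, also in KO at 5 h, at 1943, 1219.7, 1008 and 956 CPM. Grn, which codes for progranulin, the precursor of granulin peptides, went from 1891 ± 173 to 3414 ± 284 CPM (0.85 ± 0.16, adjusted p = 1.82e-05). Gpnmb, a glycoprotein of stressed lysosomes, was at 11049, 10089, 11832 and 11817 CPM at 0 h and at 13772, 15034, 14235 and 14211 CPM at 18 h, with no overlap (0.35 ± 0.08, adjusted p = 1.87e-04). With library totals, that value was -0.01, adjusted p = 0.85. Lamp1 had 0.35 ± 0.07, adjusted p = 2.40e-05, and -0.02, adjusted p = 0.731 with library totals. Cd63 passed the test at no time in either genotype, with values of 0.13 at 5 h and 0.04 at 18 h in WT.

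Tfeb made the largest excursion of the 36 at 5 h. The factor that drives lysosomal genes was at 23.3, 30.0, 27.2 and 29.0 CPM in WT at 0 h and at 24.1, 26.1, 26.6 and 21.8 CPM at 1 h. At 5 h it was at 2.30, 2.52, 2.47 and 2.13 CPM, and at 18 h at 34.0, 33.3, 29.1 and 34.6 CPM. KO libraries gave 23.0, 28.2, 27.3 and 30.3 CPM at 0 h, 0.430, 1.17, 1.55 and 1.58 CPM at 5 h and 33.3, 41.4, 42.6 and 27.1 CPM at 18 h. These are 18 to 22 tags per library at 5 h in WT and 4 to 16 in KO, which set the precision. At 5 h the log2 fold change came to -3.54 ± 0.18, adjusted p = 1.66e-17, in WT and -4.51 ± 0.19, adjusted p = 2.90e-19, in KO, and from 5 to 18 h, a comparison added after the data were seen, it was 3.80 ± 0.18 and 4.90 ± 0.19. At 18 h against 0 h, Tfeb had 0.26 ± 0.13, adjusted p = 0.0773, in WT and 0.40 ± 0.13, adjusted p = 0.00738, in KO, the latter -0.05, adjusted p = 0.759 with library totals.

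Tfe3, its relative, dipped less. It was at 147, 140.3, 151 and 160.2 CPM at 0 h, at 111, 114, 117 and 110.2 CPM at 5 h and at 160.3, 159, 141 and 154 CPM at 18 h in WT (-0.41 ± 0.08, adjusted p = 3.58e-05, at 5 h and 0.04 ± 0.08 at 18 h). Mcoln1 (TRPML1), the calcium channel of the lysosome, was at 27.3, 28.8, 25.7 and 26.4 CPM at 0 h, at 21.1, 24.2, 28.7 and 22.5 CPM at 5 h and at 46.6, 49.9, 40.0 and 45.4 CPM at 18 h (0.75 ± 0.12, adjusted p = 1.51e-06), with every library at 18 h above all earlier ones. In WT, 9 members were called lower at 5 h against 0 h and higher at 18 h against 5 h (against 23.7% of all genes tested): Tfeb, Tfe3, Neu1, Npc1, Smpd1, Gaa (acid alpha-glucosidase), Naglu (a heparan sulfate glycosidase), Lipa and Lgmn. In KO there were 8 (against 20.4%): Tfeb, Tfe3, Neu1, Npc1, Smpd1, Gaa, Naglu and Psap. The KO list was not drawn up again without KO replicate 1 at 5 h. From 5 to 18 h, 28 members were called in WT (21 higher and 7 lower, against 69.1% of all genes tested, 35.9% higher and 33.2% lower) and 25 in KO (17 higher and 8 lower, against 68.8%, 34.9% higher and 33.9% lower). Without KO replicate 1 at 5 h, the KO count was 30 (19 higher and 11 lower, with 7697 of the 11279 genes tested called). With library totals the WT split was 23 higher and 4 lower. A different 6 genes in WT (Ctsf, Ctsl, Hexa, Gusb, Tpp1 and Man2b1) were called lower at 18 h against 0 h and against 5 h (against 17.6% of all genes tested), and Gusb and Tpp1 lost the call against 5 h under another scaling.

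**Figure D4:**
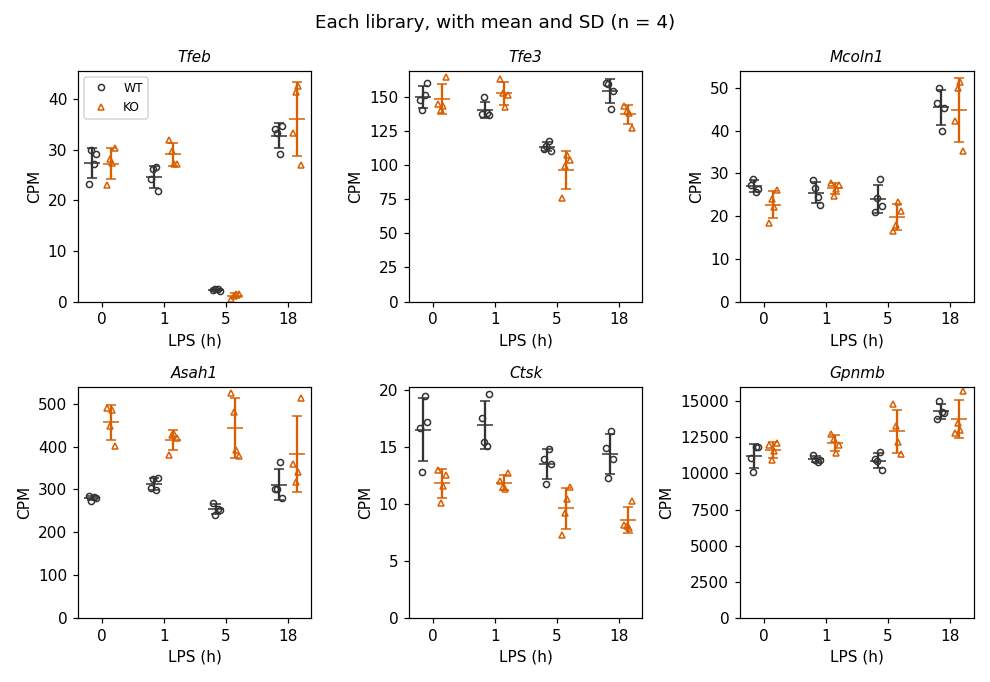
CPM of 6 genes in each library against hours of LPS (WT, circles; KO, triangles; bars, mean and SD of 4 libraries). Tfeb is near 0 at 5 h in all 8 libraries, Asah1 is higher in KO at 0, 1 and 5 h, and Ctsk is lower in KO at each time.

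The promoters were read for the E-box CACGTG and for the longer forms of the CLEAR element TCACGTG, TCACGTGA and GTCACGTGA, on both strands, from 250 bases before to 50 bases after each RefSeq start (GRCm38.p6). Each longer form holds the shorter ones. Windows were at hand for 32 members, 38 in all, and none for Ctsb, Ctsh, Npc1 and Asah1. CACGTG was in 28.9% of member windows (11 of 38) and in 7.15% of all 32851 windows, and GTCACGTGA in 10.5% (4 of 38) and 0.782%. For the other lysosomal genes listed below no share is given, since windows were found for 83 of 111 and the check is void. The 4 stretches below carry the longest matches or the most of them, lie before the start site, and are shown because the genes moved in different directions. They read 5′ to 3′ on the strand of the gene, with each match in capitals.
Lamp1, chr8:13159096-13159155, + strand: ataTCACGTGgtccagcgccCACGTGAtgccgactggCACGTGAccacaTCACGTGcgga
Ctsd, chr7:142387908-142387937, - strand: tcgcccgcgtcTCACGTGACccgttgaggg
Mcoln1, chr8:3500463-3500492, + strand: ggcgccccgcTCACGTGACcgcggcgcatg
Gla, chrX:134601182-134601211, - strand: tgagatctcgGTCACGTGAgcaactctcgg
Lamp1 holds TCACGTG or its reverse complement 4 times in 60 bases, and the others hold GTCACGTGA once. Ctsa, the remaining holder of GTCACGTGA, has it 2 times close to its start. At 18 h in WT, Mcoln1 (0.75), Gla (1.21) and Lamp1 (0.35, lost with library totals) were higher and Ctsd (-0.54) was lower. Of the 11 members with CACGTG in a window 4 were higher and 5 lower at 18 h, and of the 21 without it 9 were higher and 6 lower. Tfeb and Neu1, the members with the largest fall at 5 h, hold no CACGTG in these windows.

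The second question was whether Nur77-KO cells differed from WT. Before LPS 5 members were called (1 higher and 4 lower, against 12.7% of all genes tested, 6.29% higher and 6.38% lower), and after 1 h 3 (2 higher and 1 lower, against 6.51%, 3.47% higher and 3.04% lower). The counts were 11 after 5 h (4 higher and 7 lower, against 24.2%, 13.5% higher and 10.6% lower) and 8 after 18 h (2 higher and 6 lower, against 21.5%, 11.7% higher and 9.80% lower). As shares of the 36 these are 13.9%, 8.33%, 30.6% and 22.2%, within 1.5 times those of all genes. The median log2 fold change of the 36 was -0.11, 0.02, -0.16 and -0.16 at the 4 times, and that of all genes -0.03, -0.000983, 0.02 and -0.01. A log2 limit of 0.58 left 1, 0, 2 and 1 of the 36 at the 4 times (against 4.81%, 2.86%, 8.74% and 9.82% of all genes), and a limit of 1 left 0 at each (1.63%, 1.13%, 2.26% and 3.79%). With library totals the split was 4 higher and 3 lower at 5 h and 2 higher and 12 lower at 18 h. Members with all KO libraries above all WT libraries numbered 1, 7, 3 and 2 at 0, 1, 5 and 18 h (9.44%, 10.2%, 8.93% and 11.0% of all genes), and those with all KO below all WT 4, 4, 7 and 7 (13.4%, 9.27%, 9.67% and 9.97%).

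**Figure D5:**
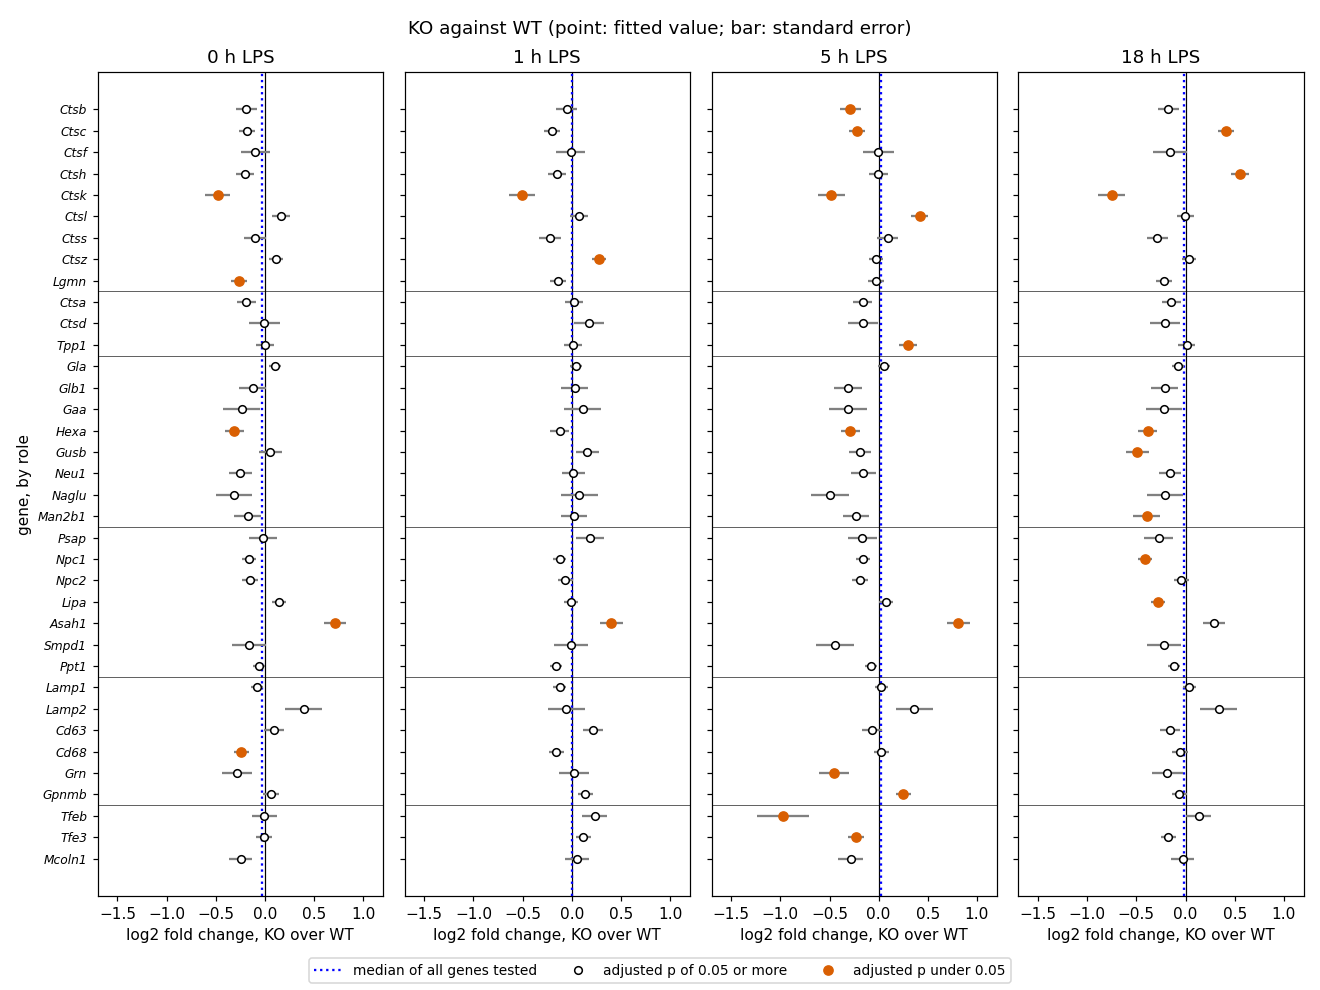
Log2 fold change of KO over WT for the 36 genes (rows, by role) at each time of LPS, with SE (bars), genes with an adjusted p under 0.05 filled, and the median of all genes tested dotted. Ctsk lies to the left at all 4 times, Asah1 to the right, and Ctsc and Ctsh lie to the right at 18 h.

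Before LPS, the clearest difference was Asah1, the acid ceramidase. It was at 285, 274, 282 and 279 CPM in WT and at 491, 448, 485 and 402 CPM in KO, without overlap, a log2 fold change of 0.71 ± 0.11, adjusted p = 4.57e-05. At 1 h the libraries stood at 304, 324, 299 and 326 CPM in WT and 381, 428, 430.3 and 419.6 CPM in KO (0.40 ± 0.11, adjusted p = 0.0248), and at 5 h at 269, 240.0, 255 and 252 CPM and 525, 481, 393 and 379 CPM (0.81 ± 0.11, adjusted p = 6.83e-06). At 18 h WT was at 301, 299.9, 364 and 279 CPM and KO at 360.0, 317, 340.2 and 514 CPM, which overlapped (0.29 ± 0.11, adjusted p = 0.0613). The calls at 0 and 5 h held in each fit run, with any 1 library left out and under each alternative, while that at 1 h was lost in 5 fits (without WT replicates 1 and 3, KO replicates 2, 3 and 4), with an adjusted p of up to 0.075. The change of genotype effect from 0 to 18 h (-0.42 ± 0.16, adjusted p = 0.103) did not pass.

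Ctsk, the collagen-degrading cathepsin best known from osteoclasts, was lower in KO at each time. It was at 16.6, 12.9, 19.5 and 17.2 CPM in WT and 13.0, 10.1, 11.6 and 12.6 CPM in KO at 0 h, at 13.9, 11.7, 14.8 and 13.5 and 7.32, 9.20, 10.4 and 11.5 CPM at 5 h, and at 14.9, 12.3, 16.4 and 14.0 and 8.16, 8.09, 7.88 and 10.2 CPM at 18 h. The groups overlapped at 0 h in 1 library of each genotype and did not overlap at the later times. The log2 fold change was -0.48 ± 0.13, adjusted p = 0.0113, -0.51 ± 0.13, adjusted p = 0.0116, -0.48 ± 0.14, adjusted p = 0.0126, and -0.75 ± 0.13, adjusted p = 7.68e-05, at 0, 1, 5 and 18 h. The call at 18 h held in each of these fits, that at 0 h was lost without WT replicate 3 or KO replicate 2 (adjusted p up to 0.0669), that at 1 h without WT replicate 4 (0.0596), and that at 5 h without KO replicate 1 (0.0654). The summed osteoclast genes, a sum that was mostly Mmp9 as stated above, moved the other way. They were at 506 to 676 CPM in WT and 1073 to 1367 CPM in KO at 1 h. At 18 h they were at 144 to 156 and 171 to 248 CPM. The genotypes did not overlap at 0, 1 and 18 h, and overlapped at 5 h, at 397 to 493 and 476 to 913 CPM. The relation of these genes to the level of Ctsk was not tested.

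At 0 h Hexa (-0.31 ± 0.10, adjusted p = 0.0308), Lgmn (-0.27 ± 0.08, adjusted p = 0.0289) and Cd68 (-0.24 ± 0.08, adjusted p = 0.0434) were also called lower in KO. Each lost its call in 6 of the 8 fits that left out 1 library of this time, and Cd68 lost it with DESeq2's size factors. The count of 5 fell to 1 without KO replicate 2 or WT replicate 3, to 2 without KO replicate 1, KO replicate 3 or WT replicate 4, and to 3 without WT replicate 1. At 1 h, Ctsz was higher in KO, at 631, 642, 661 and 615 CPM in WT and 828, 772, 738 and 749.9 CPM in KO, without overlap (0.28 ± 0.07, adjusted p = 0.0146). That call was lost without WT replicate 4 or KO replicate 1, and the count of 3 fell to 1 without WT replicate 4.

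At 5 h the KO group was uneven. The 11 calls fell to 3 (Asah1, Ctsl and Ctsc) without KO replicate 1, to 6 without WT replicate 1, 2 or 3 and to 7 without KO replicate 2, and rose to 16 without KO replicate 3. With the 8 libraries of this time fitted alone, 1 of the 11 remained past the threshold, Asah1. Tfeb was lower in all 4 KO libraries (the values are given above), with -0.97 ± 0.27, adjusted p = 0.00982. Without KO replicate 1, the lowest, it was -0.73, adjusted p = 0.0725. Ctsl was higher in KO, at 2019 to 2119 CPM in WT and 2426 to 3255 CPM in KO (0.42 ± 0.09, adjusted p = 0.00119), and kept its call without any 1 library. Tpp1 (0.30 ± 0.09, adjusted p = 0.0169) and Gpnmb (0.25 ± 0.08, adjusted p = 0.0205) were called higher, and Grn (-0.45 ± 0.16, adjusted p = 0.0342), Hexa (-0.29 ± 0.10, adjusted p = 0.0294), Ctsb (-0.29 ± 0.11, adjusted p = 0.049), Tfe3 (-0.23 ± 0.08, adjusted p = 0.0367) and Ctsc (-0.22 ± 0.08, adjusted p = 0.0435) lower. Without KO replicate 1, Tfeb, Ctsk, Tpp1, Gpnmb, Grn, Hexa, Ctsb and Tfe3 all lost their calls, and Ctsc lost its call without any WT library and without KO replicate 3 or 4. Ctsb, Ctsc, Hexa, Grn and Tfe3 also lost theirs under another scaling (library totals or DESeq2's size factors). In this group Tfe3 was at 75.7, 99.4, 107 and 103 CPM and Hexa at 457, 679, 710.4 and 676 CPM, with replicate 1 the lowest in both.

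At 18 h the differences rested less on single libraries. Summed cell type markers differed here too: the 8 macrophage markers were at 12826 to 13351 CPM in WT and 9638 to 11543 CPM in KO, and 7 dendritic cell markers, of which 2 had a mean above 1 CPM and Flt3, Zbtb46 and Ccr7 did not, at 6.69 to 8.30 and 19.0 to 24.1 CPM, neither with overlap. Their part in the differences was not tested. Higher in KO were Ctsh (0.56 ± 0.09, adjusted p = 3.12e-05) and Ctsc (0.41 ± 0.08, adjusted p = 2.85e-04), 2 of the 3 genes with the largest rise under LPS. Lower in KO, beside Ctsk, were Gusb, Npc1, Man2b1, Hexa and Lipa. Gusb was at 279, 282, 264 and 279 CPM in WT and 213, 227, 196 and 153 CPM in KO (-0.49 ± 0.12, adjusted p = 0.00219). Npc1, the transporter that takes cholesterol out of the lysosome, was at 350.4, 359, 381 and 348 CPM in WT and 264, 285, 266 and 274 CPM in KO (-0.41 ± 0.07, adjusted p = 3.73e-05). Hexa was at 541, 550.0, 504 and 539 and 435, 431, 413 and 361 CPM (-0.39 ± 0.10, adjusted p = 0.00353), and Lipa at 1398, 1487, 1704 and 1363 and 1228, 1192, 1223 and 1268 CPM (-0.28 ± 0.07, adjusted p = 0.00391). In none of these did a KO library reach the WT range. Man2b1 stood at 364, 362, 338 and 372 CPM in WT and 286, 309, 293 and 209 CPM in KO, and its call (-0.40 ± 0.13, adjusted p = 0.0319) was lost without KO replicate 4, the lowest, or without WT replicates 1, 2 or 4. All 8 kept their direction and call under the 3 scalings, and all but Man2b1 kept them without any 1 library. The 28 members not called at 18 h ranged from -0.29 (Ctss) to 0.34 (Lamp2). The regulators were among these, with Tfeb at 0.13 ± 0.13, Tfe3 at -0.17 ± 0.08 and Mcoln1 at -0.03 ± 0.11.

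Ctsh and Ctsc rose further in KO than in WT, and Gusb and Lipa fell further. The interaction of genotype and LPS at 18 h was called for 4 members (2 higher and 2 lower, against 9.40% of all genes tested, 5.36% higher and 4.03% lower): Ctsh (0.76 ± 0.13, adjusted p = 1.65e-04), Ctsc (0.59 ± 0.12, adjusted p = 6.69e-04), Gusb (-0.55 ± 0.16, adjusted p = 0.0298) and Lipa (-0.43 ± 0.10, adjusted p = 0.00475). Lipa had been at 1817, 1769, 1852 and 1859 CPM in WT and 2217, 1828, 2122 and 1859 CPM in KO at 0 h. From there it fell by 0.29 ± 0.07 on the log2 scale in WT and by 0.72 ± 0.07 in KO. The interactions of Ctsh, Ctsc and Lipa held without any 1 library, while Gusb lost its call without any of 6 (WT replicate 2 and KO replicate 4 at 0 h, WT replicates 1 and 2 and KO replicates 3 and 4 at 18 h), with an adjusted p of up to 0.0745, and also when transcripts were summed. At 1 h and at 5 h, 0 members had a called interaction (0.0709% and 3.10% of all genes), with 0 and 4 at an unadjusted p under 0.05. DESeq2's Wald test called 0 and 1, the latter Tfeb (-0.98, adjusted p = 0.0407). With library totals 7 were called at 18 h (2 higher and 5 lower).

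Some members passed the test at 18 h of LPS in 1 genotype and not in the other, and for none of them did the interaction pass. Cd68, the macrophage sialomucin, had -0.24 ± 0.08 in WT and -0.05 ± 0.08 in KO, with an interaction of 0.18 ± 0.11, adjusted p = 0.376. Npc1 had 0.16 ± 0.07 (-0.21, adjusted p = 0.0101, with library totals) and -0.09 ± 0.07 (interaction -0.25 ± 0.10, adjusted p = 0.119), and Psap 0.40 ± 0.15 and 0.14 ± 0.15 (interaction -0.26 ± 0.21, adjusted p = 0.546). In KO alone, Tfeb, Ctsk, Asah1 and Ppt1 passed. Ctsk had -0.20 ± 0.13 in WT and -0.47 ± 0.13 in KO (interaction -0.27 ± 0.18, adjusted p = 0.443), and Ppt1 -0.13 ± 0.06 and -0.19 ± 0.06 (interaction -0.06 ± 0.09, adjusted p = 0.793).

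The other lysosomal genes were taken from 6 lists of 111 genes, of which 103 were tested. At 18 h of LPS in WT, the V-ATPase subunits had 10 higher and 4 lower of 18, other lysosomal enzymes and activators 10 higher and 13 lower of 28, sorting and other membrane proteins 10 higher and 7 lower of 20, genes that control TFEB and TFE3 4 higher and 3 lower of 16, autophagy genes 7 higher and 4 lower of 16 and cathepsin inhibitors 2 higher and 3 lower of 5. At 5 h the autophagy genes had 3 higher and 9 lower of 16, with a median of -0.47 where all genes had -0.14, and from 5 to 18 h 10 higher and 2 lower of 16. Of all genes tested in WT, 32.3% were higher and 33.9% lower at 18 h against 0 h. The shares were 30.0% and 40.1% at 5 h, and 35.9% and 33.2% from 5 to 18 h. In KO against WT, 11 higher and 2 lower of 103 were called at 0 h and 6 higher and 3 lower of 103 at 1 h. The counts were 11 higher and 14 lower of 103 at 5 h and 7 higher and 15 lower of 103 at 18 h. These are to be read against the shares of all genes given above for KO against WT.

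At 18 h, 6 of the 28 other enzymes and activators were called lower in KO and the other 22 were not called. Of all genes tested, 11.7% were higher and 9.80% lower in KO at this time, which is the background for each list here. The largest fall was that of Sgsh, a sulfatase of heparan sulfate breakdown, at 17.1, 14.6, 16.6 and 16.5 CPM in WT and 5.74, 6.66, 6.47 and 4.18 CPM in KO (-1.50 ± 0.15, adjusted p = 9.51e-09), a larger difference than that of any of the 36. Manba, the beta-mannosidase that follows Man2b1 in glycan breakdown, was at 38.1 ± 2.80 and 22.1 ± 2.98 CPM (-0.80 ± 0.10, adjusted p = 3.19e-07). In the V-ATPase, 2 were higher and 2 lower of 18, with Atp6v0d2 at 155 ± 34.5 CPM in WT and 286 ± 91.0 CPM in KO (0.88 ± 0.20, adjusted p = 0.00116) and Atp6v1d at 208 ± 14.8 and 312 ± 70.3 CPM (0.58 ± 0.13, adjusted p = 0.00118). Cst7 (cystatin F), an inhibitor that acts on cathepsin C and related enzymes inside the cell, was at 246 ± 9.31 CPM in WT and 377 ± 9.99 CPM in KO (0.61 ± 0.11, adjusted p = 5.58e-05), and Serpinb6a had -0.36 ± 0.13, adjusted p = 0.0416. Both Ctsc and Cst7 were thus higher in KO at 18 h.

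Of the sorting and membrane proteins, 1 was higher and 5 lower at 18 h, with Tpcn1, a cation channel of endosomes and lysosomes, at -0.64 ± 0.10, adjusted p = 5.94e-06, and Slc36a1, an amino acid exporter of the lysosome, at -0.56 ± 0.12, adjusted p = 8.62e-04. The numbers tested in this list and the next are those given above. All genes tested had 11.7% higher and 9.80% lower. Among the genes that control TFEB and TFE3, 3 were higher and 1 lower: Fnip1, a partner of folliculin in the sensing of amino acids, was at 121 ± 31.9 CPM in WT and 185 ± 30.2 CPM in KO (0.60 ± 0.16, adjusted p = 0.00571), and Lamtor4, a subunit of the Ragulator complex, had -0.55 ± 0.18, adjusted p = 0.0316.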

How the data were processed

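RNA was isolated from BMDM-WT and BMDM-Nur77-KO after 0, 1, 5 and 18 h of LPS, and strand-specific mRNA libraries were sequenced paired-end. The authors called bases with CASAVA 1.8.2, aligned reads with HISAT2 2.1.0 to mm10, filtered on mapping quality and counted tags per RefSeq transcript with HOMER without normalization. The deposited table holds these expected counts, in steps of 0.5, for 42361 transcripts. Here transcripts were named (93 were not, with 0.233% to 1.37% of tags per library), each gene was given by its transcript of highest mean count, and counts were rounded to whole numbers. Total tags per library had a median of 11847140, and the number of tags limits the precision of low genes such as Tfeb.

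Genes with a mean above 1 RPKM in at least 1 of 8 groups (11279) were tested with the quasi-likelihood test of edgeR 4.0.16 (R 4.3.3, TMM) in 1 fit of 8 group means over 32 libraries. All adjusted p-values not from permutation tests are from edgeR unless DESeq2 1.42.0 is named, adjusted by Benjamini-Hochberg over all genes tested, with a threshold of 0.05. SE was the size of the log2 fold change divided by the root of F. The fit was tested on simulated data with the same spread in all groups. That cannot show how it handles an uneven group such as KO at 5 h. Levels are TMM-scaled CPM. Lengths, exons and overlaps came from RefSeq and GENCODE M21. Other scalings, filters, tests, transcript sums, fold limits and leaving out each library were tried. Groups and replicate numbers came from the labels.

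Library values are given for members past a log2 limit of 0.58 between genotypes at any time, the 4 with the largest change each way in WT at 18 h, and Tfeb, Tfe3, Mcoln1 and Gpnmb. Of each other list, the 2 genes with the largest called genotype difference at 18 h are named. Other library values, the Ctsc transcripts and the comparison of 18 h with 5 h were chosen after values were seen, and the members and lists were chosen with earlier results of these data known.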

Additional observations from a re-analysis of the deposited data

Results flagged for a closer look

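The CPM of the 14 members chosen by rule for library values, and the share of tags on all 36, were looked at in each of the 8 groups of 4 libraries. In 9 of these 120 sets, 1 library stood apart from the other 3 by Dixon's 95% criterion, and chance flags about 1 group in 20. For Ctsf this was WT replicate 1 at 18 h (4.00 CPM, the lowest). For Ctsh it was WT replicate 3 at 5 h (234 CPM) and KO replicate 4 at 0 h (172 CPM). For Ctsk it was KO replicate 4 at 18 h (10.2 CPM, the highest, and still below each WT library). For Hexa it was KO replicate 1 at 5 h (457 CPM, the lowest), and without it the call of Hexa at 5 h was lost. For Gusb it was WT replicate 4 at 5 h (349 CPM). For Npc2 it was WT replicate 2 at 18 h (2279 CPM) and KO replicate 2 at 0 h (730.5 CPM). For Tfe3 it was WT replicate 2 at 1 h (149 CPM).

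The response to 18 h of LPS differed between the genotypes, by the interaction term in edgeR, for 4 members. On the log2 scale the difference, KO less WT, was 0.76 for Ctsh, 0.59 for Ctsc, -0.55 for Gusb and -0.43 for Lipa. Gusb lost its call in 6 fits that left out 1 library, and the other 3 kept theirs in each such fit.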

How the results depend on the processing

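Of the called values of the 36 members, each under 10 alternatives, 1616 kept direction and side of the threshold, 137 fell short of it and 17 turned. With library totals these were, at 5 h, Ctss (-0.38) and Ctsz (-0.27) in WT and Ctsh (-0.24), Ctsl (-0.31), Ctss (-0.20), Ctsz (-0.39) and Lamp1 (-0.45) in KO, at 18 h, Gpnmb (-0.013), Lamp1 (-0.020), Lgmn (-0.058) and Npc1 (-0.21) in WT and Ctss (-0.10), Gpnmb (-0.22), Lgmn (-0.098) and Tfeb (-0.050) in KO, and from 5 to 18 h Ppt1 (0.12) in WT. With transcripts summed it was Ctsc from 5 to 18 h in WT (-0.083). Of the counts of members called, library totals gave 7 (KO against WT at 5 h), 14 (at 18 h), 9 and 34 (LPS in WT at 1 and 5 h), 3 and 34 (in KO) and 7 (interaction at 18 h). Fitting the libraries compared alone gave 8, 8 and 1 for KO against WT at 0, 1 and 5 h and 6 for LPS in WT at 1 h. DESeq2's Wald test gave 2 for LPS in WT at 1 h and 1 for the interaction at 5 h. A log2 limit of 0.58 gave 1, 0, 2 and 1 for KO against WT at 0, 1, 5 and 18 h, 0, 6 and 13 for LPS in WT at 1, 5 and 18 h, 0, 11 and 16 in KO, 2 for the interaction at 18 h and 16 from 5 to 18 h in WT. A limit of 1 gave 0 for each genotype comparison and for the interaction, 0, 2 and 8 for LPS in WT, 0, 2 and 9 in KO, and 5 and 9 from 5 to 18 h in WT and KO; fewer pass by construction. For the other settings the cause was not tested. Leaving out 1 library gave 1 to 6, 1 to 3, 3 to 16 and 7 to 11 for KO against WT at 0, 1, 5 and 18 h. It gave 12 to 17 for LPS at 5 h in WT, 17 to 25 for LPS at 5 h in KO and 0 to 1 for the interaction at 5 h. From 5 to 18 h in KO it gave 24 to 30. Same-numbered libraries deviated together (r over 0.1 in each pair) in no comparison, and the main fit did not pair them. This check cannot exclude that numbers share an animal or a batch. For LPS at 5 h against 0 h in KO, 3 of 4 libraries matched their own number best (r from -0.19 to 0.56). For KO against WT it was 2, 2, 0 and 0 of 4 at 0, 1, 5 and 18 h. With a replicate block the counts for KO against WT were 4, 3, 9 and 8, those for LPS in WT 1, 18 and 25, and those for the interaction 0, 0 and 4, with the genotype calls of Cd68 at 0 h and of Ctsb and Ctsc at 5 h and the WT calls of Naglu at 5 h and Glb1 at 18 h lost. Depth limits Tfeb at 5 h (4 to 22 tags), Nr4a1 at 18 h and the low Ctsf.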
